A study of Homo sapiens with 6 samples.

Results

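The expression of 10 genes of S-adenosylmethionine and polyamine metabolism was followed in cells given a compound coded AAPK, which the series title describes as a dual inhibitor of the kinases Aurora A and PLK-1. They were MAT2A, MAT2B, METTL16, AHCY, MTR, AMD1, SRM, SMS, ODC1 and SAT1, 10 of the 18132 genes that the array names singly. A probe set is a group of short array probes that is read as 1 value. The 10 genes had 37 of the 44988 probe sets that name exactly 1 gene, and all 37 are given here. The genes were chosen by the measured change between AAPK and DMSO, because the probe sets of MAT2A moved in opposite directions, and the others were added as its pathway partners. That contrast is therefore a description for all 10 genes, and no p-value is given for them.

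The study compared 3 arrays of cells given AAPK with 3 of cells given the vehicle DMSO. All 6 samples are labelled as HCT-116, an established human colorectal carcinoma line, described as high in Aurora-A and PLK-1, and grown in RPMI medium with fetal bovine serum. The treatment label reads the same for every sample and gives 10 µM drug for 48 h, read here as the AAPK dose and exposure. Nothing in the labels ties the replicates to separate cultures, so errors and p-values below cover the spread among these arrays and no more, and that spread may be technical.

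S-adenosylmethionine is the methyl donor of most methylation reactions in the cell. MAT2A makes it from methionine and ATP, MAT2B is the regulatory partner of MAT2A, AHCY clears the S-adenosylhomocysteine that methylation leaves behind, and MTR remakes methionine from homocysteine. METTL16 is an RNA methyltransferase that acts on hairpins of the MAT2A transcript and, when S-adenosylmethionine is low, promotes removal of its last intron and raises the mature mRNA. A branch of the same pool goes to polyamines. AMD1 decarboxylates S-adenosylmethionine, ODC1 makes putrescine from ornithine, SRM and SMS build spermidine and spermine, and SAT1 acetylates spermidine and spermine for breakdown or export.

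The arrays were alike in overall signal, with medians of 6.46 to 6.50 log2 units. Arrays of a group correlated at Pearson's r of 0.9976 to 0.9983, and arrays of different groups at 0.9941 to 0.9953. Array controls for RNA quality set the 3′ signal of a transcript against its 5′ signal. That difference overlapped between the groups for ACTB, at 0.47 to 0.53 in DMSO and 0.44 to 0.57 in AAPK, and for GAPDH, at -0.09 to -0.05 and -0.12 to -0.08. It did not overlap for the ribosomal controls, at -0.74 to -0.48 in DMSO and -0.98 to -0.93 in AAPK for 18S rRNA, and at -2.23 to -1.88 and -2.95 to -2.62 for 28S rRNA. The 5′ set of 28S rRNA was higher in every AAPK array, at 10.18 to 10.32 against 9.56 to 9.78, and the 3′ set of 18S rRNA lower, at 11.59 to 11.77 against 12.01 to 12.16. The part of these differences in the results below was not tested. The epithelial keratins KRT8 and KRT18 were bright, at the 99.4th and 99.7th percentile of signal, and KRT8 was called higher in AAPK, by 0.17. EPCAM, a surface protein of colorectal carcinoma cells, was near the floor, with its 3 probe sets at the 1.8th to 2.4th percentile and means of 3.34 to 3.45 log2 units in both groups. CDH1, VIL1, KRT20 and CLDN7 also lay below the median, so 5 of 7 epithelial markers did, while VIM, a mesenchymal filament gene looked up after these values were seen, lay at the 99.6th and 99.7th percentile. These levels go against the label, the reason was not tested, and the cells are called here by their label. Of 10 markers of fibroblasts, blood cells and endothelial cells, none was called different between AAPK and DMSO in the gene fit described below, and 5 of the 10 lay above the median probe set, from LUM at the 0.8th percentile to HBB at the 86.8th. Percentiles rank probe sets by signal and do not compare transcript amounts between genes.

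The upstream sequences of MAT2A, METTL16, ODC1 and SAT1 are shown because the brightest probe set of each was called. Each is the 250 bases before the start of the gene in RefSeq (GRCh38.p14), on the strand of the gene, with any match to 4 motifs in capitals. MAT2A lies on the plus strand at chr2:85538918-85539167 and SAT1 on the plus strand at chrX:23782923-23783172. METTL16 lies on the minus strand at chr17:2511889-2512138 and ODC1 on the minus strand at chr2:10448328-10448577.
MAT2A: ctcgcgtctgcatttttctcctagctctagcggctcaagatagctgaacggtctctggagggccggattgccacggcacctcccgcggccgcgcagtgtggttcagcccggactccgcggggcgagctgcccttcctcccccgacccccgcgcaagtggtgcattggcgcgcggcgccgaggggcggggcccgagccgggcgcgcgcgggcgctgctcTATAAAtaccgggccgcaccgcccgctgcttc
METTL16: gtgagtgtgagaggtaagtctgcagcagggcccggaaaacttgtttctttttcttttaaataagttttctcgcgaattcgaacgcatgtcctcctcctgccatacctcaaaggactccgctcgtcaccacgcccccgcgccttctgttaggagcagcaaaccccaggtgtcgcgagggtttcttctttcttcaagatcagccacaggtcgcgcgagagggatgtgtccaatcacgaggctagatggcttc
ODC1: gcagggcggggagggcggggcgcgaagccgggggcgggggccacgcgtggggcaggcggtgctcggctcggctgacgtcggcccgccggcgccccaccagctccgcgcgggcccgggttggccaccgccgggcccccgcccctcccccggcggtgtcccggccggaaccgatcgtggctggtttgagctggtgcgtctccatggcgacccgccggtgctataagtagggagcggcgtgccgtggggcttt
SAT1: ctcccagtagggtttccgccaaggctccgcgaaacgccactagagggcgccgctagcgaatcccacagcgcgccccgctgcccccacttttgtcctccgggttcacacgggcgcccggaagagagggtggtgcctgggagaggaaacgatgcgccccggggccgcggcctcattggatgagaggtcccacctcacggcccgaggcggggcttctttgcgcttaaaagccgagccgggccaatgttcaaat
The motifs were the core of the C/EBP-ATF response element, TGATGNAA, the E-box CACGTG, a heat shock element core of GAANNTTC, and a TATA box written TATAAA, each searched on both strands. MAT2A held a TATA box from 32 to 27 bases before its start, a motif found in 10.7% of the 35116 windows of the same length. METTL16, ODC1 and SAT1 held none of the 4 in the windows shown. Only the exact letters were counted, so the near form tataag toward the end of the ODC1 window was not a match. The G and C content of METTL16, ODC1 and SAT1 was 53.2%, 78.8% and 66.4%, against 71.6% for MAT2A and a median of 58.0% over all windows. The response element core, found in 3.14% of all windows, was in 0 of the 9 members whose RefSeq start matched a window, and so was the heat shock core, at 5.78%. The E-box, at 6.34% of all windows, was in 1 of the 9, SRM, and in the window of another start of ODC1. These windows describe letters only, and a missing match says nothing about the factor.

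MAT2A had the largest change among the 10 genes, and it went both ways. Its 6 probe sets held 5 that fell between 2.65-fold and 4.33-fold and 1 that rose 1.5-fold. The brightest, 11757376_s_at, read 13.24, 13.15 and 13.24 log2 units in DMSO and 11.82, 11.74 and 11.84 in AAPK. The groups stood well apart, and the change was -1.41 ± 0.05 on the log2 scale (moderated SE, n = 3 per group). Probe set 11751457_a_at had the deepest fall, from 10.67, 10.57 and 10.62 to 8.52, 8.63 and 8.36, a change of -2.12 ± 0.07. The other 3 falling probe sets had changes of -1.83, -1.99 and -2.04, with SEs of 0.05 to 0.06. The smallest of the 5 falls was thus on the brightest probe set.

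The probe set that rose, 11760938_a_at, was the dimmest of the 6. It read 6.75, 6.85 and 6.98 in DMSO and 7.53, 7.53 and 7.28 in AAPK, a change of 0.59 ± 0.08, and every AAPK array lay above every DMSO array. Its signal was at the 64.3rd percentile of all probe sets, against the 95.1st to 99.7th for the other 5. Where along the gene the probes of each set lie, and whether a set reads the last intron or the mature mRNA, is not given in the sources used here. In Affymetrix naming, a_at marks probes that match transcripts of a single gene, while s_at and x_at mark probes that can match several transcripts or other sequences. The rising set is an a_at set, and the falling ones are 2 a_at, 2 x_at and 1 s_at.

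Within each array the balance between the MAT2A probe sets moved with the treatment. The signal of 11751457_a_at exceeded that of the rising set by 3.92, 3.72 and 3.64 log2 units in DMSO and by 0.99, 1.10 and 1.08 in AAPK. For the brightest set the excess was 6.49, 6.30 and 6.25 in DMSO and 4.29, 4.21 and 4.56 in AAPK. A ratio taken within an array is unaffected by a constant added to all log2 values of that array, but not by a normalisation that reshapes the distribution. It shows unequal change of the sets and does not give the amount of any transcript form.

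**Figure D1:**
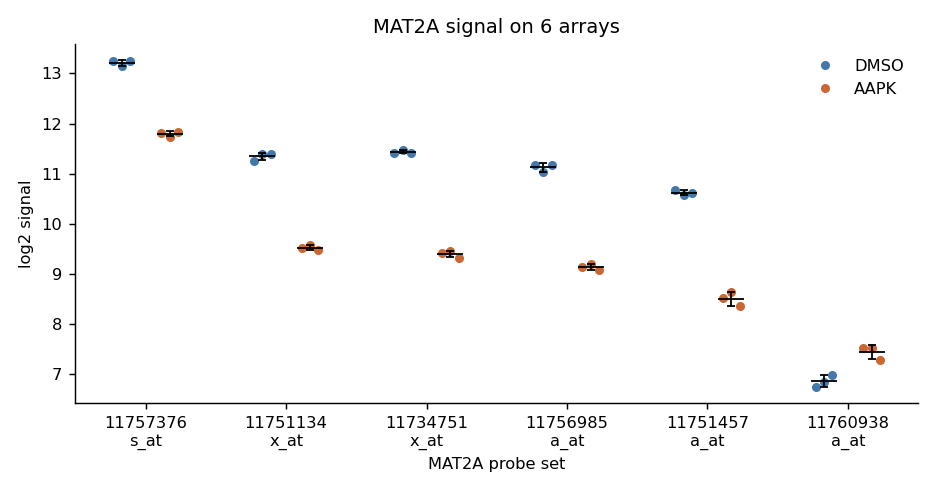
Log2 signal (y axis) of the 6 MAT2A probe sets (x axis, brightest on the left) on 3 DMSO and 3 AAPK arrays. Points are arrays and black bars are mean ± SD. AAPK lies below DMSO on 5 probe sets and above it on 11760938_a_at, where the means are 6.86 and 7.45.

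Calls in opposite directions within a gene were few. A limma model was fitted over all 44988 probe sets, and a probe set was called when its Benjamini-Hochberg adjusted p was under 0.05. Of 11734 genes with 2 or more probe sets, 51, 0.435%, had probe sets called in both directions. MAT2A was chosen for this pattern and had the widest span among the 51, 2.70 log2 units between its lowest and highest change. SYNCRIP, an RNA-binding protein gene, came next with 1.33. SAT1 was at place 5 with 0.89, from -0.18 to 0.71. A gene could be among the 51 only with at least 2 called probe sets, and most probe sets were not called. The 0.435% thus does not give how often called sets of a gene disagree.

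The transcripts nearest in pattern to MAT2A were found by the root mean square difference over the 6 arrays, each probe set centred on its own mean. For 11751457_a_at the 5 nearest genes were DDIT3 at 0.127 log2 units, TRIB3 at 0.237, CAMTA2 at 0.313, GADD45A at 0.316 and RNF144B at 0.372. All 5 were lower in AAPK, by log2 changes of -2.23 to -1.41. For the rising set they were CDCA8 at 0.050, PRORP at 0.051, FSTL3 at 0.083, CPSF6 at 0.084 and DDX39A at 0.084, with changes of 0.49 to 0.64. With 2 groups of 3 arrays, this measure mostly picks genes with a change of the same size.

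Across all 37 probe sets of the 10 genes, 5 were called higher and 7 lower in AAPK. Over the array as a whole 7.13% of probe sets were called higher and 5.82% lower. Since this contrast was used in choosing the genes, nothing is read from the difference between those shares. The groups did not overlap on 8 probe sets with AAPK above DMSO and on 8 with AAPK below, against 14.3% and 15.2% of all probe sets. MAT2A supplied 6 of the 12 calls. The other 31 probe sets, of 9 genes, gave 4 higher and 2 lower calls, and these lay in SAT1, ODC1, SRM and METTL16. The median change was -0.03 over the 37 probe sets and -0.01 over all probe sets. On the brightest probe set of each gene, the fit with 1 probe set per gene called 2 of the 10 genes higher and 2 lower, with 8.11% and 7.26% of all 18132 genes.

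**Figure D2:**
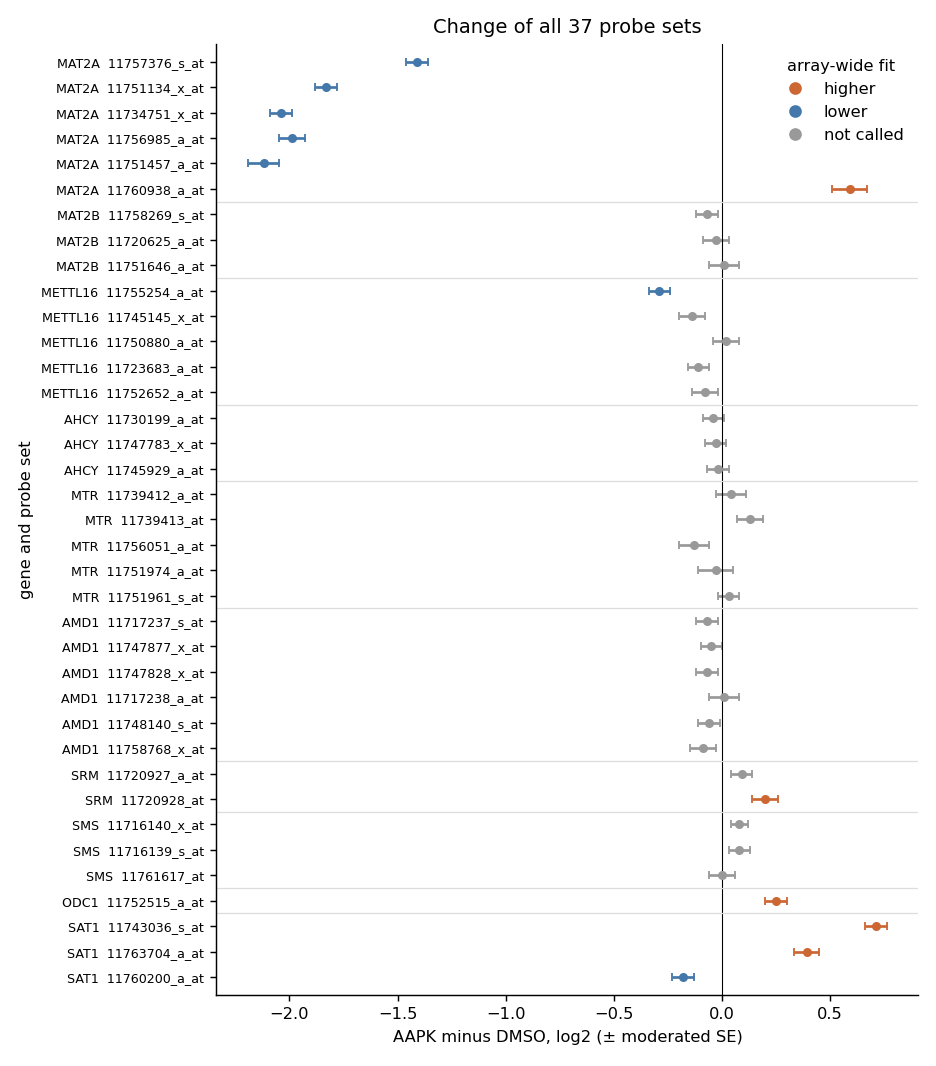
Change between AAPK and DMSO on the log2 scale (x axis) for all 37 probe sets, grouped by gene with the brightest first. Bars are the moderated SE, and colours give the call of the fit over all 44988 probe sets. MAT2A stands out on the left with 5 sets between -2.12 and -1.41 and on the right with 1 at 0.59, SAT1 reaches 0.71, and 25 probe sets were not called.

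METTL16, the methyltransferase that acts on the MAT2A transcript, was lower on 1 of its 5 probe sets. On the brightest, 11755254_a_at, the DMSO arrays read 8.05, 7.98 and 8.06 and the AAPK arrays 7.75, 7.74 and 7.75, a change of -0.29 ± 0.05 with no overlap. The other 4 sets had changes of -0.14, -0.11, -0.08 and 0.02 and overlapped between the groups. A further probe set that names METTL16 together with another locus was at 0.02 and was not counted.

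The remaining genes of the S-adenosylmethionine cycle had small changes that were not called. MAT2B, the regulatory subunit, had changes of -0.07, -0.03 and 0.01 on its 3 probe sets. On its brightest, the DMSO arrays read 9.84, 9.84 and 9.88 and the AAPK arrays 9.76, 9.72 and 9.88. AHCY, the hydrolase, read 10.10, 10.07 and 10.13 in DMSO and 10.05, 10.08 and 10.06 in AAPK on its brightest set, and its 3 probe sets had changes of -0.04 to -0.02. MTR, methionine synthase, had changes from -0.13 to 0.13 on 5 probe sets. The brightest of them read 7.73, 7.80 and 7.92 in DMSO and 7.85, 7.99 and 7.73 in AAPK, and 2 were dim, at the 4.9th and 10.4th percentile of signal. All 11 of these probe sets overlapped between the groups.

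Along the polyamine branch, the entry enzymes differed. AMD1, which commits S-adenosylmethionine to polyamines, was not called on any of its 6 probe sets, with changes from -0.09 to 0.01. Its brightest set read 9.94, 9.91 and 10.03 in DMSO and 9.87, 9.89 and 9.90 in AAPK, so the groups were just apart with AAPK below, while its other 5 sets overlapped. A further set that names AMD1 together with the pseudogene AMD1P3 was at -0.20 and was not counted. ODC1, the decarboxylase that makes putrescine, has a single probe set. It read 9.51, 9.55 and 9.56 in DMSO and 9.74, 9.85 and 9.76 in AAPK, a 1.19-fold rise (0.25 ± 0.05). With no second probe set this rise has no check within the gene.

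The 2 synthases that follow differed little between the groups. SRM, spermidine synthase, rose on 11720928_at, from 8.10, 8.05 and 8.06 to 8.34, 8.32 and 8.17, a change of 0.20 ± 0.06. That call was lost when any array other than AAPK replicate 3 was left out, with changes of 0.17 to 0.26 over all alternatives. Its brighter set read 9.79, 9.84 and 9.84 in DMSO and 9.94, 9.94 and 9.86 in AAPK, apart but not called, at 0.09 ± 0.05. SMS, spermine synthase, was at 0.08 on both of its bright sets. On the brighter, the DMSO arrays read 10.67, 10.64 and 10.67 and the AAPK arrays 10.73, 10.75 and 10.75, apart but not called. Its remaining set was dim, at the 15.9th percentile, and was at 0.00.

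SAT1, the acetyltransferase of polyamine breakdown, had the largest rise of the 10 genes and, like MAT2A, a probe set that went the other way. Probe set 11743036_s_at read 8.98, 8.88 and 8.98 in DMSO and 9.64, 9.66 and 9.67 in AAPK, a 1.63-fold rise (0.71 ± 0.05). Probe set 11763704_a_at rose 1.31-fold, from 8.52, 8.45 and 8.58 to 8.92, 8.80 and 8.98 (0.39 ± 0.06). The dimmest set, 11760200_a_at, read 6.63, 6.53 and 6.60 in DMSO and 6.41, 6.42 and 6.38 in AAPK, a change of -0.18 ± 0.05. The groups did not overlap on any of the 3. The lower call was lost under 8 of 14 alternatives, among them leaving out each array except DMSO replicate 2. The change stayed between -0.21 and -0.16, so the call of this set depended on the setting while its sign did not. Within arrays, 11743036_s_at exceeded the falling set by 2.35, 2.35 and 2.38 log2 units in DMSO and by 3.23, 3.23 and 3.29 in AAPK.

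**Figure D3:**
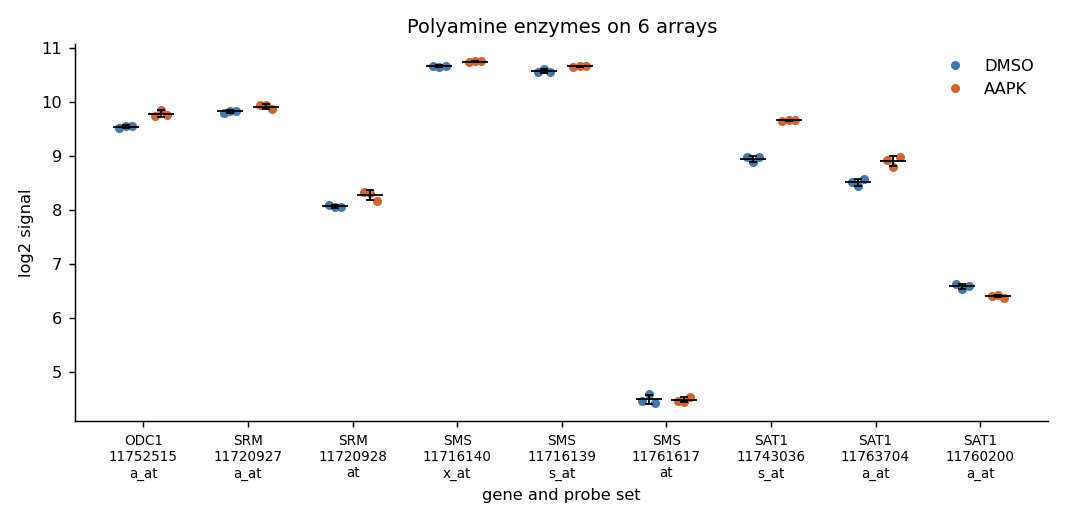
Log2 signal (y axis) of the probe sets of ODC1, SRM, SMS and SAT1 (x axis) on 3 DMSO and 3 AAPK arrays. Points are arrays and black bars are mean ± SD. The brightest SAT1 set moves from a mean of 8.95 to 9.66 and the dimmest from 6.58 to 6.40, while SMS has changes of at most 0.08.

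Other genes of the surrounding pathways were counted from lists of 134 genes, of which 127 were measured, with 1 value per gene from its brightest probe set. Of the 127, 14 were higher, 26 lower and 87 not called in the limma fit over 18132 genes, with a median change of -0.02, the same as over all genes. The calls in each direction over all genes were the 8.11% and 7.26% given above. The lists were drawn up with earlier results of these data known. The p-values given for their genes thus describe these arrays and are not independent tests. Of the 87 genes not called, 19 had an unadjusted p under 0.05, and 19 were called under at least 1 alternative. The matching shares over all uncalled genes are not given here. Nothing is therefore read from these counts, or from the counts of unadjusted p for single lists below.

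The methionine cycle beyond the members had no call on the brightest probe sets, with 0 of 10 genes and 0 with an unadjusted p under 0.05 in limma. MAT1A, the liver form of the MAT2A enzyme, and BHMT, a liver enzyme that remakes methionine, had the largest changes on those sets, -0.11 and -0.07. ADK, which clears the adenosine that AHCY releases, was at 0.03 on its brightest set but at -0.28 on its other set, and was called lower when the set with the largest spread was used (limma adjusted p = 0.0076). AHCYL1 and AHCYL2, relatives of AHCY, were at -0.02 and 0.03. Enzymes that carry sulfur onward from homocysteine were mixed, with 1 of 8 genes higher and 2 lower. CTH, which makes cysteine from cystathionine, read 9.50, 9.34 and 9.45 in DMSO and 8.49, 8.49 and 8.49 in AAPK, a 1.92-fold fall (limma adjusted p = 2.15e-06). GCLM and GCLC are the subunits of the first enzyme of glutathione synthesis. GCLM was at 0.38 (limma adjusted p = 0.00178), with 0.12 on its other set. GCLC was at -0.24 (limma adjusted p = 0.0155), and its 3 other sets ran from -0.23 to 0.11. The GCLC call was lost when its probe sets were averaged, at -0.08, and with the set of largest spread, at -0.23. That call was also lost without DMSO replicate 3 or AAPK replicate 1.

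Enzymes and carriers of the folate cycle, which supplies the methyl group used by MTR and also serves nucleotide synthesis, had 1 of 13 genes higher and 4 lower. MTHFD2, a mitochondrial folate enzyme, fell from 11.48, 11.57 and 11.60 to 10.68, 10.62 and 10.71 (-0.88 ± 0.05, limma adjusted p = 2.93e-06), and its 4 other probe sets ran from -0.92 to -0.81. SHMT2, which takes the methyl unit from serine in mitochondria, fell by 0.57 (limma adjusted p = 6.08e-05). SLC25A32, a mitochondrial folate carrier, rose by 0.46 (limma adjusted p = 9.71e-04). SHMT1, the cytosolic form, was at -0.18 (limma adjusted p = 0.0282), a call lost when any array other than AAPK replicate 2 was left out. TYMS, thymidylate synthase, named after its value was seen, was also at -0.18 and lost its call without DMSO replicate 1 or 3 or AAPK replicate 1 or 2. Methionine salvage, which recovers methionine from the by-product of polyamine synthesis, had 2 of 8 genes higher and 2 lower. KYAT3 was at -0.25 and kept its call under all 16 alternatives. MRI1 at 0.19, MTAP at -0.16 and ADI1 at 0.15 lost theirs under 9, 10 and 9 of 16, among them leaving out any of 5 or 6 arrays.

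Regulators of polyamine levels had 3 of 17 genes higher and 2 lower. OAZ2, an antizyme, which binds ODC1 and directs it to the proteasome, rose from 8.54, 8.36 and 8.55 to 9.08, 9.07 and 8.90 (0.53 ± 0.07, limma adjusted p = 4.89e-04), and its other probe set was at 0.52. OAZ1, another antizyme and named after its value was seen, was at 0.21 (limma adjusted p = 0.00926), with 5 other sets at 0.18 to 0.30. AZIN1, an inhibitor of antizymes, fell from 9.16, 9.17 and 9.29 to 8.95, 8.94 and 8.94 (-0.27 ± 0.05, limma adjusted p = 0.00445), with -0.45 on its other set. OAT, which turns ornithine toward glutamate and proline, rose by 0.32 (limma adjusted p = 0.00372), and SLC3A2, the heavy chain of amino acid transporters, fell by 0.28 (limma adjusted p = 0.00180). These 5 calls held under every alternative run. AZIN2 and SAT2, relatives of members of the branch, were at -0.02 and -0.03 and were not called. None of the 4 genes that make or carry hypusine, a spermidine-derived residue of eIF5A, was called by limma, and 1 had an unadjusted p under 0.05. EIF5A was at 0.12 and DHPS at -0.03. The 5 other sets of EIF5A ran from -0.10 to 0.22. EIF5A was called higher under 3 of 16 alternatives, among them the choice by largest spread. Without s_at and x_at sets it was at -0.10 and not called.

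Genes of RNA methylation and MAT2A processing had 2 of 23 genes higher and 6 lower, with a median change of -0.08. WTAP, a subunit of the main mRNA methyltransferase complex, read 9.45, 9.48 and 9.56 in DMSO and 8.72, 8.76 and 8.80 in AAPK (-0.74 ± 0.05, limma adjusted p = 7.46e-06); its 3 other probe sets ran from -0.45 to 0.06, and the change was between -0.79 and -0.29 over the alternatives. CBLL1, another subunit, fell by 0.73 (limma adjusted p = 1.66e-04), with -0.16 on its other set. RBM15B, an RNA-binding partner, fell by 0.38 (limma adjusted p = 5.73e-04), with -0.05 on its other set. METTL3, METTL14, VIRMA, ZC3H13 and RBM15, also of this complex, were named after their values were seen. METTL3 was called higher at 0.22 (limma adjusted p = 0.0484), and under 7 of 16 alternatives. METTL14 at -0.15, VIRMA at -0.09 and ZC3H13 at -0.02 were not called. RBM15 was called lower at -0.37, but its 4 other sets ran from -0.23 to 0.32. CPSF6, a subunit of the cleavage factor that takes part in MAT2A intron removal, rose from 8.21, 8.28 and 8.21 to 8.91, 8.93 and 8.77 (0.63 ± 0.05, limma adjusted p = 4.46e-05). Its 4 other probe sets ran from -0.03 to 0.81. NUDT21, its partner in that factor and named after its values were seen, was at -0.16 on its brightest set and not called, while its 2 other sets ran from 0.11 to 0.25. It was called lower under 6 alternatives and higher when the set with the largest spread was used, so its direction depends on the probe set.

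Among enzymes that spend S-adenosylmethionine on DNA and proteins, with their partners, 5 of 32 genes were higher and 7 lower. EZH2, the histone H3 methyltransferase of Polycomb, read 8.69, 8.74 and 8.73 in DMSO and 7.93, 7.99 and 7.99 in AAPK (-0.75 ± 0.04, limma adjusted p = 3.52e-06), with -0.42 and -0.27 on its other sets. PRMT7, an arginine methyltransferase, rose by 0.61 (limma adjusted p = 1.68e-05), and WDR77, the partner of PRMT5, by 0.40 (limma adjusted p = 3.45e-04). UHRF1, which brings DNMT1 to replicated DNA, fell by 0.40 (limma adjusted p = 0.00236), with -0.18 and 0.08 on its other sets. Of 12 methyltransferases of small molecules and related genes, 0 were higher and 3 lower on the brightest probe sets. TPMT, which methylates thiopurine drugs and was named after its values were seen, was at 0.12 and not called there. Its 3 other sets were at 0.31 to 0.43. It was called higher under 4 of 16 alternatives, among them the choice by largest spread, and was at 0.32 with the mean of its sets (limma adjusted p = 3.45e-04). PCMTD1 fell by 0.57 (limma adjusted p = 3.24e-04), with -0.05 on its other set, and COQ5, which methylates a precursor of coenzyme Q, by 0.26 (limma adjusted p = 0.00857). NNMT, which methylates nicotinamide, was at -0.21 (limma adjusted p = 0.0202), a call lost without DMSO replicate 1, DMSO replicate 3 or AAPK replicate 1.

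**Figure D4:**
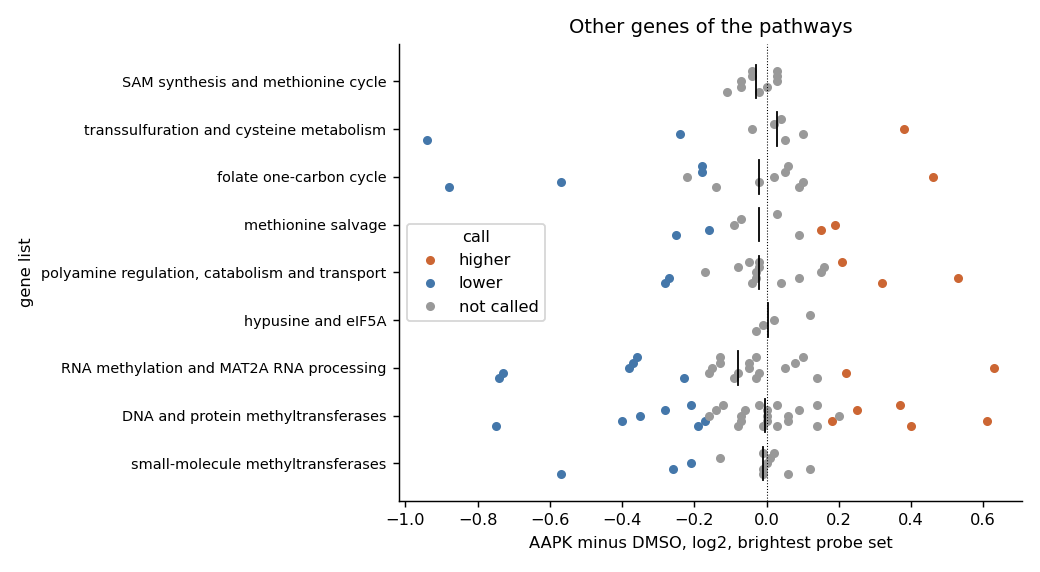
Change between AAPK and DMSO on the log2 scale (x axis) for the 127 listed genes other than the 10 members, by gene list (y axis). Each point is a gene on its brightest probe set, colours give the call of the fit over 18132 genes, and black lines are list medians, which lie between -0.08 and 0.03.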

How the data were processed

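Total RNA of the 6 samples was taken up in Trizol, biotin-labelled by IVT and read on an Affymetrix array, per the labels' protocols. The authors deposited log2 values for 49395 probe sets, and the method of background correction, normalisation and probe summary behind them is not given in the sources used here. The scale was read from their range, 2.83 to 14.25, and the array medians were nearly equal. Any normalisation that equalises arrays removes a change shared by most genes.

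Gene names came from the platform's annotation; 102 controls, 1832 sets naming several genes and 2473 naming none were left out. The other 44988 were fitted in limma 3.58.1 (R 4.3.3) by lmFit and eBayes with treatment as the sole factor, and p-values were adjusted over all of them by the Benjamini-Hochberg method, with a threshold of 0.05. A second fit used the brightest probe set of each of 18132 genes. The code was tested on simulated data. Array number, 3 per group, limits precision. The members and lists were chosen with earlier results of these data known. Percentiles rank the mean signal of single-gene probe sets. From each list the 4 largest called changes without overlap are named, or the 2 largest where none was called. The 6 relatives of members are always named. ADK, METTL3, METTL14, NUDT21, OAZ1, RBM15, TPMT, TYMS, VIM, VIRMA and ZC3H13 were added after their values were seen. Alternatives were quantile normalisation, median centring, signal filters at the 25th and 50th percentile, an intensity trend, array weights, a replicate block, other choices of probe set and leaving out each array. The choice by largest spread used the standard deviation over all 6 arrays. That spread includes the treatment difference, so the choice favours sets that change.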

Additional observations from a re-analysis of the deposited data

How the results depend on the processing

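The 5 member probe sets called higher were 4 or 5 under every alternative run, and the 7 called lower were 6 or 7, except that 4 were left when s_at and x_at probe sets were dropped, since 3 of the falling MAT2A sets were then not fitted. All 6 MAT2A calls, and those of the brightest METTL16 and SAT1 sets, the ODC1 set and the second SAT1 set, held wherever these sets were fitted. With the replicate block the counts were 4 and 6, and the pathway genes gave 11 higher and 21 lower against 14 and 26. Over all alternatives the pathway genes ran from 10 to 20 higher and from 18 to 33 lower. The labels tie same-numbered arrays by number only. Deviations of those arrays from their group means correlated at 0.028, -0.199 and -0.03, which cannot show whether they shared a culture or batch. Over all probe sets, 1723 were called lower without AAPK replicate 1, against 2618, and without s_at and x_at sets 1825 were called higher against 3206 and 1576 lower, with fewer sets tested. No alternative reversed a called member. The background correction and probe summary could not be varied.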
